A study of Mus musculus with 8 samples.

Results

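The genes described here encode the machinery of the lysosome, the acidic compartment in which cells break down proteins, sugar chains, lipids and engulfed material. They are 32 genes for lysosomal proteases, glycosidases, lipid-handling proteins, membrane proteins, a pair of proton pump subunits and the transcription factor TFEB, and each was read from the transcript cluster (the set of probes for 1 gene) that bears its symbol. Of the 32 genes, 29 were measured among 19505 genes with a symbol, and each had 1 cluster. *Ctsd*, *Glb1* and *Cd68* were not analysed here. The samples were 4 spleen samples of lymphoma-bearing animals (Vav1DC/DC) and 4 of control animals without that allele, all of strain C57BL/6, with 1 Affymetrix Clariom S HT array per sample. Both groups were also homozygous for 1 further knock-in allele, which the controls share and which is not described here. The lymphoma group also carried the edited *Vav1* allele, whose product lacks part of its C-terminal SH3 domain, in all cells and from the endogenous locus. The groups therefore differ in *Vav1* and in disease at once, and these cannot be told apart. The ages of the animals on the arrays are not given in the sources used here, and the labels do not tell whether the arrays of a group came from different animals. The p-values describe the spread between arrays, which may be technical. The sample labels and the methods name spleen as the source of the RNA, whereas the design text of the series names splenocytes, so whether stroma and tissue-bound macrophages are in the values is not settled.

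Lysosomal enzymes are made in the endoplasmic reticulum, are mostly tagged with mannose 6-phosphate and are carried to a compartment that the vacuolar proton pump keeps acidic. Most cells hold lysosomes, but macrophages of the spleen, which clear old red cells and debris, are particularly rich in them, and antigen-presenting cells use the cathepsins to trim the invariant chain of MHC class II. Many genes of the compartment share an E-box in their promoters that is bound by TFEB and its relatives TFE3, TFEC and MITF, the MiT/TFE factors.

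Transcripts of the lysosome were higher in the lymphoma spleens across nearly every role. Of the 29 measured genes, 26 passed the test as higher in lymphoma spleens and 0 as lower, against 18.2% of all 22206 transcript clusters called higher and 17.2% called lower, or 35.4% in either direction (limma, a linear model per cluster with moderated variances, called at a Benjamini-Hochberg adjusted p of at most 0.05 over all clusters). The adjusted p of the 26 genes was 0.00417 or lower. All 4 lymphoma arrays lay above all 4 control arrays for the same count of 26 genes, against 18.0% of all clusters, and 9 of the called genes differed by at least 2-fold, against 3.03% of all clusters. The median log2 fold change of the 29 genes was 0.73, or 1.65-fold, beside -0.06 over all clusters. Since 28 of the 29 clusters were brighter than the median cluster, the share of clusters called higher among those 11103 brighter ones, 30.0%, is also given, and their median log2 fold change was 0.00. In such bulk RNA, more cells of a type and more RNA per cell cannot be told apart. No lysosomal gene had a value at or below the background of its array, which was taken as the median of 23 antigenomic probe sets and lay between 4.76 and 4.94 on the lymphoma arrays and between 4.82 and 4.92 on the control arrays (all values in log2 units).

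**Figure D1:**
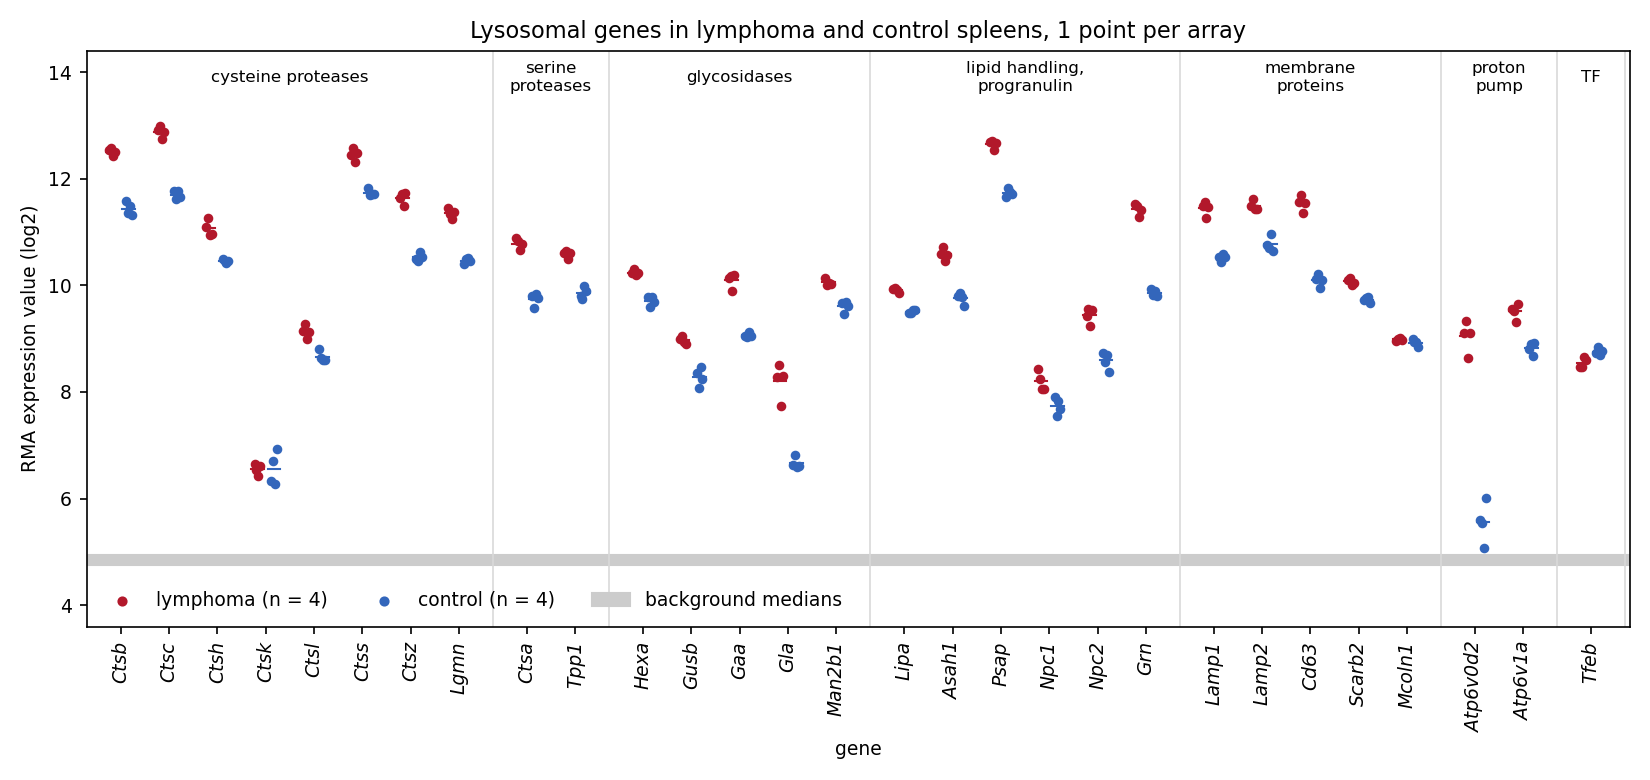
Values of the 29 measured lysosomal genes (x axis, grouped by role) on each of the 4 lymphoma arrays (red, left of each pair) and 4 control arrays (blue, right), as robust multichip average values on the log2 scale (y axis); short lines are group means and the grey band spans the background medians of the arrays. The red points lie above the blue points without overlap for 26 genes, and the largest gap is that of *Atp6v0d2*.

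Of the 8 cysteine proteases, which hydrolyse proteins with a catalytic cysteine, 7 were higher and *Ctsk* did not pass the test. *Ctsc*, which encodes the dipeptidyl peptidase that activates the serine proteases of granules, had the largest change of this role, with 12.91, 12.99, 12.75 and 12.88 in lymphoma spleens, against 11.78, 11.62, 11.76 and 11.66 in control spleens. Every lymphoma array was thus about 1 unit above every control array, and the log2 fold change was 1.18 (SE 0.08, limma adjusted p = 1.82e-07), or 2.27-fold. *Ctsz*, a carboxypeptidase, and *Ctsb*, an endopeptidase that also removes dipeptides, were close to it, with log2 fold changes of 1.12 (11.65 ± 0.11 in lymphoma and 10.52 ± 0.07 in control spleens) and 1.08 (12.51 ± 0.07 in lymphoma and 11.43 ± 0.12 in control spleens; mean ± SD, n = 4 each). *Lgmn*, the asparaginyl endopeptidase that also cleaves cathepsins to their mature chains, had 0.89. Lower in this order were *Ctss*, the main protease of the invariant chain in B cells and dendritic cells, at 0.72, *Ctsh*, an aminopeptidase, at 0.61, and *Ctsl*, a broad endopeptidase, at 0.47 (limma adjusted p = 1.26e-05, 9.28e-05 and 0.000752). The lowest and the highest of these 7 changes, those of *Ctsl* and *Ctsc*, had 95% intervals of 0.29 to 0.66 and 1.01 to 1.35. *Ctsk*, known as the collagen-degrading protease of osteoclasts, stood apart from its family. It had 6.66, 6.53, 6.43 and 6.62 in lymphoma spleens, against 6.32, 6.71, 6.27 and 6.94 in control spleens, and the lymphoma values lay inside the range of the control values. Its log2 fold change was 0.00 (SE 0.13, limma adjusted p = 0.994), with a 95% interval of -0.29 to 0.28.

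Both measured proteases of other classes were higher. *Ctsa*, a serine carboxypeptidase that also holds β-galactosidase and neuraminidase in a stable complex, had 10.88, 10.83, 10.66 and 10.77 in lymphoma spleens, against 9.79, 9.57, 9.83 and 9.75 in control spleens. The groups were separated by more than 0.8 units on the log2 scale, with a log2 fold change of 1.05 (SE 0.09, limma adjusted p = 8.95e-07). *Tpp1*, which encodes tripeptidyl peptidase 1, had 10.60, 10.64, 10.49 and 10.60 in lymphoma spleens, against 9.80, 9.75, 9.99 and 9.90 in control spleens, a log2 fold change of 0.73 (SE 0.08, limma adjusted p = 1.22e-05) again without overlap.

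All 5 measured glycosidases, which cut sugars from glycoproteins, glycolipids and glycogen, were higher, and their changes spanned 0.44 to 1.54. *Gla*, the α-galactosidase of glycolipids, had 8.29, 8.51, 7.73 and 8.30 in lymphoma spleens, against 6.64, 6.82, 6.59 and 6.62 in control spleens. Lymphoma replicate 3 was the lowest of its group by more than 0.5 units and was still above every control array, and the log2 fold change was 1.54 (SE 0.14, limma adjusted p = 1.91e-06), or 2.91-fold. *Gaa*, the acid α-glucosidase of glycogen, followed with 1.04, *Gusb*, the β-glucuronidase, with 0.68, and *Hexa*, the α chain of β-hexosaminidase, with 0.53. *Man2b1*, the lysosomal α-mannosidase, had the lowest change of the role, with 10.14, 10.003, 10.04 and 10.03 in lymphoma spleens, against 9.68, 9.46, 9.69 and 9.61 in control spleens. The groups did not overlap, and the log2 fold change was 0.44 (SE 0.08, limma adjusted p = 0.000648).

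All 6 genes for lipid-handling proteins and progranulin were higher. *Grn*, which encodes the secreted and lysosomal glycoprotein progranulin, had 11.52, 11.50, 11.29 and 11.42 in lymphoma spleens, against 9.93, 9.83, 9.90 and 9.79 in control spleens. The spread within each group was small beside the difference, and its log2 fold change of 1.57 (SE 0.08, limma adjusted p = 1.89e-08), or 2.96-fold, was exceeded among the 29 genes only by that of *Atp6v0d2*. *Psap*, the precursor of the saposins that present glycolipids to their hydrolases, changed by 0.92, *Npc2*, the soluble carrier of cholesterol, by 0.85, and *Asah1*, the acid ceramidase, by 0.82 (limma adjusted p = 1.08e-06, 1.95e-05 and 7.99e-06). The partner of *Npc2*, the membrane protein gene *Npc1*, through which cholesterol leaves the lysosome, changed by 0.46, with 8.20 ± 0.18 in lymphoma and 7.74 ± 0.16 in control spleens (SD, n = 4 each; limma adjusted p = 0.00417, the highest of the 26 called genes). *Lipa*, the acid lipase of cholesteryl esters and triglycerides, had the lowest change of the role, with 9.92, 9.95, 9.90 and 9.85 in lymphoma spleens, against 9.48, 9.47, 9.53 and 9.54 in control spleens. The arrays of each group lay within 0.1 units of each other, and the log2 fold change was 0.40 (SE 0.07, limma adjusted p = 0.000620).

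Of the 5 measured membrane proteins, 4 were higher and the channel gene *Mcoln1* did not pass the test. *Cd63*, a tetraspanin of late endosomes, lysosomes and secretory granules, had 11.57, 11.70, 11.36 and 11.54 in lymphoma spleens, against 10.11, 10.21, 9.96 and 10.10 in control spleens. The lowest lymphoma array lay more than 1 unit above the highest control array, and the log2 fold change was 1.44 (SE 0.09, limma adjusted p = 9.30e-08). *Lamp1* and *Lamp2*, the most abundant glycoproteins of the lysosomal membrane, changed by 0.92 and 0.73 (limma adjusted p = 2.01e-06 and 2.64e-05). *Scarb2*, which encodes the carrier of glucocerebrosidase, had the smallest change among the 26 called genes, at 0.34, with 10.07 ± 0.06 in lymphoma and 9.73 ± 0.05 in control spleens (SD, n = 4 each; limma adjusted p = 0.00255). *Mcoln1*, the cation channel that releases calcium from the lysosome, had 8.96, 8.99, 9.02 and 8.98 in lymphoma spleens, against 8.998, 8.94, 8.94 and 8.84 in control spleens. The groups overlapped, and with a log2 fold change of 0.06 (SE 0.07, limma adjusted p = 0.566) the 95% interval ran from -0.10 to 0.21. This lay below the intervals of *Cd63*, *Lamp1* and *Lamp2*, which started at 1.25, 0.74 and 0.54, but overlapped that of *Scarb2*, which ran from 0.18 to 0.50.

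**Figure D2:**
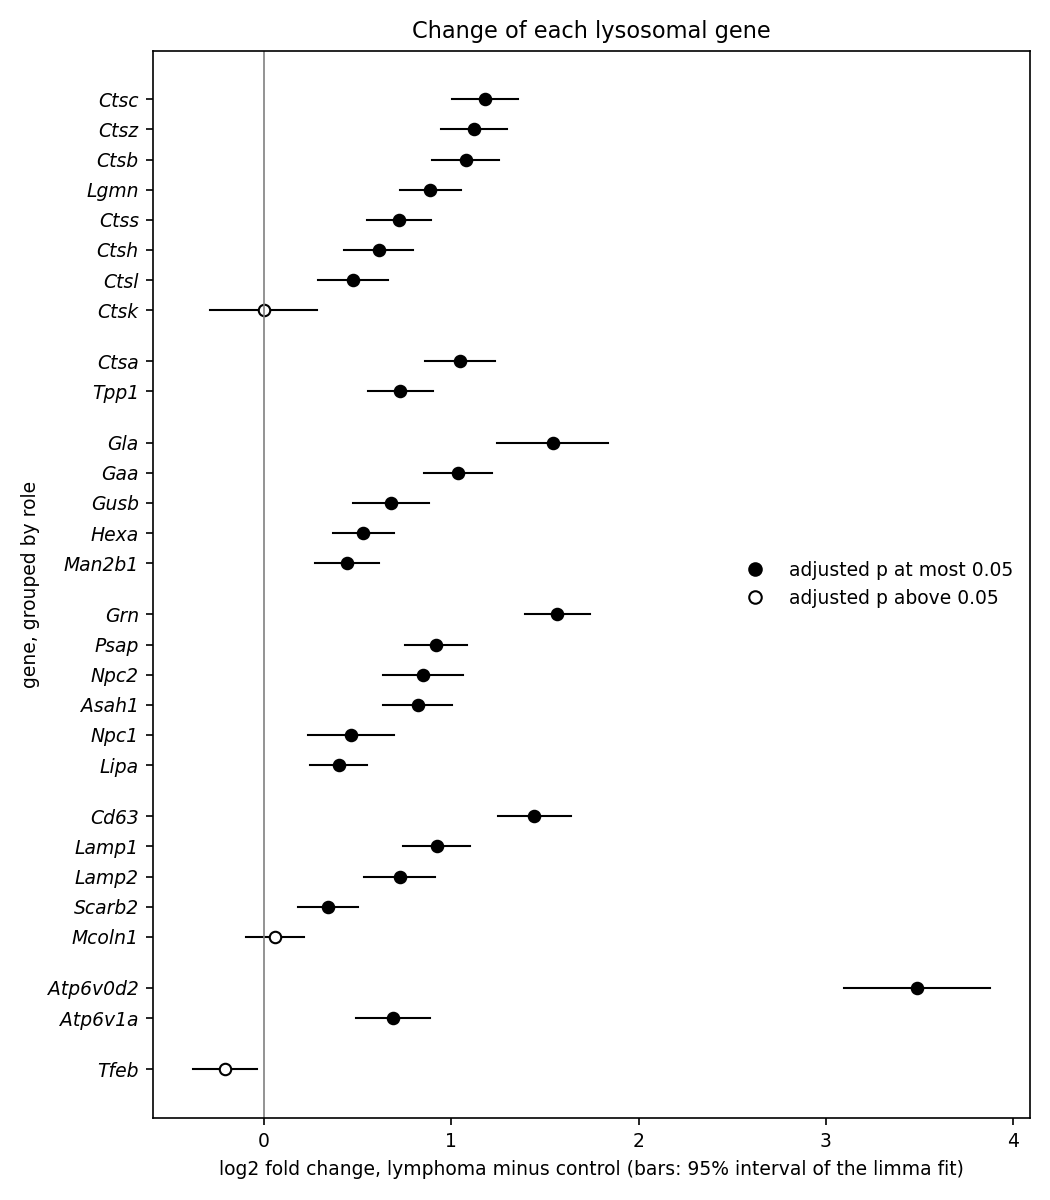
Log2 fold change of each of the 29 lysosomal genes, lymphoma minus control (x axis), with the 95% interval of the limma fit as bars; genes run down the page by role, and filled circles have an adjusted p of at most 0.05. The 26 filled circles lie between 0.34 and 3.49, and *Ctsk*, *Mcoln1* and *Tfeb* are open.

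The largest change of all 29 genes was that of *Atp6v0d2*, which encodes the d2 isoform of a subunit in the membrane sector of the proton pump and is known from osteoclasts and macrophages. It had 9.11, 9.34, 8.64 and 9.10 in lymphoma spleens, against 5.60, 5.55, 5.07 and 6.01 in control spleens. The control values lay little above the background of their arrays and the lymphoma values far above it, with a log2 fold change of 3.49 (SE 0.18, limma adjusted p = 2.04e-08), or 11.2-fold (95% interval 8.57 to 14.7), the 14th highest rise among the 22206 clusters. *Atp6v1a*, the catalytic subunit of the pump's cytosolic sector, had 9.56, 9.52, 9.32 and 9.65 in lymphoma spleens, against 8.81, 8.90, 8.67 and 8.91 in control spleens, a log2 fold change of 0.69 (SE 0.09, limma adjusted p = 6.02e-05) without overlap of the groups.

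The rest of the proton pump changed less than *Atp6v0d2*. With both genes above, 24 genes for its subunits and accessory proteins were measured, of which 14 were higher, 1 was lower and 9 did not pass the test. Group means of those 9 ran from 5.62 for *Atp6v0e2* to 9.39 for *Atp6v1h*, both in control spleens. Over all clusters, 18.2% were higher and 17.2% lower, and of the brighter clusters 30.0% were higher. In the cytosolic V1 sector 7 of 13 genes were higher, and in the membrane V0 sector 6 of 9. The second largest rise of the pump was that of *Atp6v0d1*, the ubiquitous isoform of the same subunit as *Atp6v0d2*, with 9.56, 9.64, 9.17 and 9.41 in lymphoma spleens, against 8.68, 8.41, 8.55 and 8.61 in control spleens. Its log2 fold change was 0.88 (SE 0.10, limma adjusted p = 2.39e-05), and its 95% interval of 0.65 to 1.11 lay well below the 3.10 to 3.88 of *Atp6v0d2*. *Atp6v1b2*, the B subunit of most tissues, and *Tcirg1*, the a3 subunit of osteoclasts and lymphocytes, had 0.86 and 0.75, whereas *Atp6v0a4*, an isoform known from the kidney, changed by -0.39 (limma adjusted p = 2.28e-05, 0.000344 and 0.00815). The means of *Atp6v0a4* were 5.99 in lymphoma and 6.38 in control spleens.

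**Figure D3:**
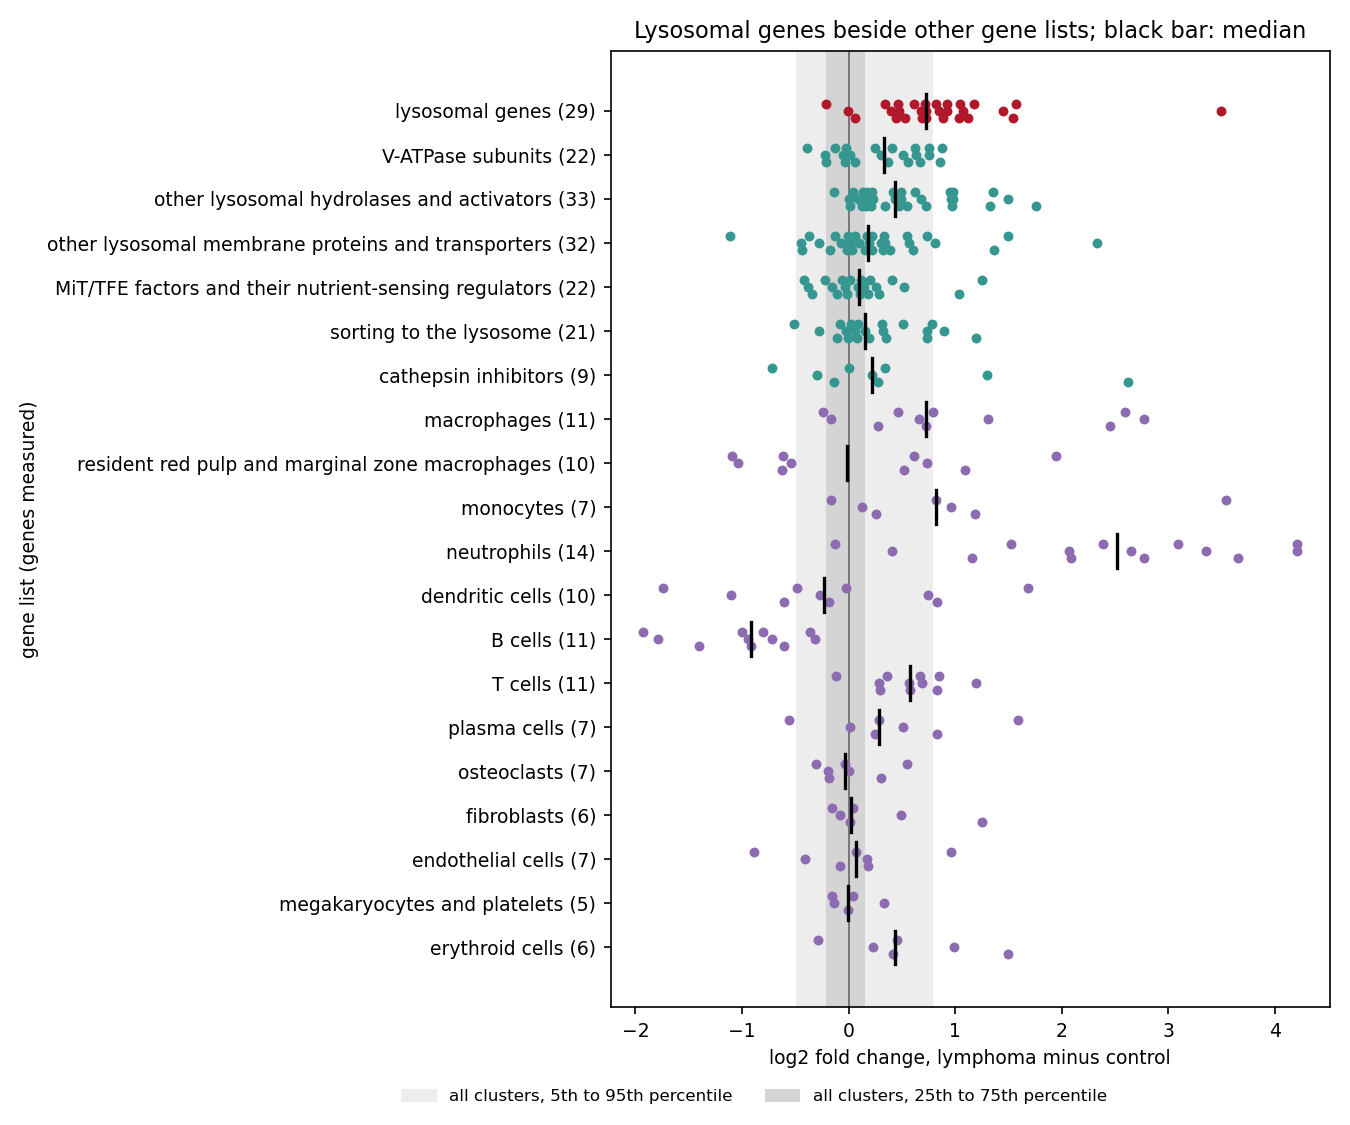
Log2 fold change, lymphoma minus control (x axis), of the 29 lysosomal genes (top line, red), of 6 other lists of lysosomal genes (green) and of 13 lists of cell type markers (violet), with 1 point per gene and the number measured in brackets; black bars are medians and grey bands span percentiles of all clusters. The median of the 29 genes, 0.73, stands beside 0.43 for other hydrolases and 0.72 for macrophage markers. Medians were 2.52 for neutrophil, 0.82 for monocyte and 0.58 for T cell markers. They were -0.01 for markers of resident macrophages and -0.91 for B cell markers.

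Other genes of the pathway, outside the 32, moved in the same direction less evenly. Their counts stand beside 18.2% of all clusters called higher and 17.2% called lower, and 30.0% of the brighter clusters called higher. Of 33 other lysosomal hydrolases and activators, 21 were higher and 0 lower (median 0.43 on the log2 scale). The lysosomal acid phosphatase gene *Acp2* led them with 1.76, before *Ppt2*, a thioesterase, with 1.50 and *Pla2g15*, a phospholipase, with 1.36 (limma adjusted p = 9.42e-08, 8.50e-07 and 5.13e-07). Of 32 other membrane proteins and transporters, 14 were higher and 5 lower, with a median of 0.18. The glycoprotein gene *Gpnmb*, known from macrophages that store lipid, had 8.80, 9.06, 8.59 and 8.91 in lymphoma spleens, against 6.59, 6.58, 6.16 and 6.70 in control spleens. No other gene of that list differed as much, with a log2 fold change of 2.33 (SE 0.13, limma adjusted p = 2.87e-08). The transporter genes *Slc15a3*, for peptides and histidine, and *Slc11a1*, for divalent metals of phagosomes, followed with 1.49 and 1.36, and the channel gene *Mcoln3*, a relative of *Mcoln1*, was lower, at -1.11 (limma adjusted p = 4.19e-07).

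Genes for sorting to the lysosome and for inhibitors of cathepsins were divided, where 18.2% of all clusters were higher and 17.2% lower. The share called higher among the brighter clusters was 30.0%. Of 21 sorting genes, 9 were higher and 2 lower, with a median of 0.16. *Igf2r*, the large receptor for mannose 6-phosphate, changed by 1.20, *Vps29* of the retromer by 0.89 and the late endosomal GTPase gene *Rab7* by 0.78, whereas the adaptor gene *Gga2* changed by -0.51. Of 9 measured genes for cathepsin inhibitors, 4 were higher and 2 lower. *Stfa2*, 1 of the 4 with a log2 fold change of 0.34, lay at or below the background on all 8 arrays, as did *Stfa1*, so 3 of the 4 were measured above it. *Cst7*, the inhibitor cystatin F of leukocytes, had 10.17, 10.18, 9.78 and 10.32 in lymphoma spleens, against 7.34, 7.58, 7.41 and 7.63 in control spleens. This was the largest change of an inhibitor, with a log2 fold change of 2.62 (SE 0.11, limma adjusted p = 5.99e-09), and the cytosolic inhibitor gene *Cstb* had 1.30, whereas *Serpinb1a*, a serpin of neutrophil proteases, had -0.72.

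Of the 4 MiT/TFE factors, which bind the shared E-box, 3 were higher and *Tfeb* did not pass the test. *Tfeb* had 8.47, 8.48, 8.66 and 8.59 in lymphoma spleens, against 8.73, 8.85, 8.69 and 8.77 in control spleens. All lymphoma arrays lay below all control arrays, as for 16.7% of all clusters, but the highest lymphoma array and the lowest control array were only 0.02 units apart (8.66 and 8.69), and the log2 fold change of -0.21 (SE 0.08, limma adjusted p = 0.0559) did not pass the test, with a 95% interval of -0.38 to -0.04. The relatives of *Tfeb* were higher. *Tfec*, a family member of macrophages, had 9.61, 9.75, 9.19 and 9.65 in lymphoma spleens, against 8.16, 8.53, 8.36 and 8.17 in control spleens, a log2 fold change of 1.25 (SE 0.12, limma adjusted p = 4.71e-06). *Mitf*, known from melanocytes, osteoclasts and macrophages, had 7.77, 7.89, 7.52 and 7.98 in lymphoma spleens, against 6.86, 6.69, 6.92 and 6.53 in control spleens, a log2 fold change of 1.04 (SE 0.11, limma adjusted p = 1.13e-05). *Tfe3*, singled out after its values were seen, changed by 0.40 (SE 0.07, limma adjusted p = 0.000691), also without overlap of the groups. The 3 higher factors belong to a list of 22 MiT/TFE factors and nutrient-sensing regulators of which 5 were higher and 4 lower, with a median of 0.10. These counts are close to the shares over all clusters, 18.2% higher and 17.2% lower. Among the brighter clusters, 30.0% were called higher. *Lamtor1*, the membrane anchor of the Ragulator complex, had 0.52, and *Rragb*, a GTPase of the same pathway, had -0.42.

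**Figure D4:**
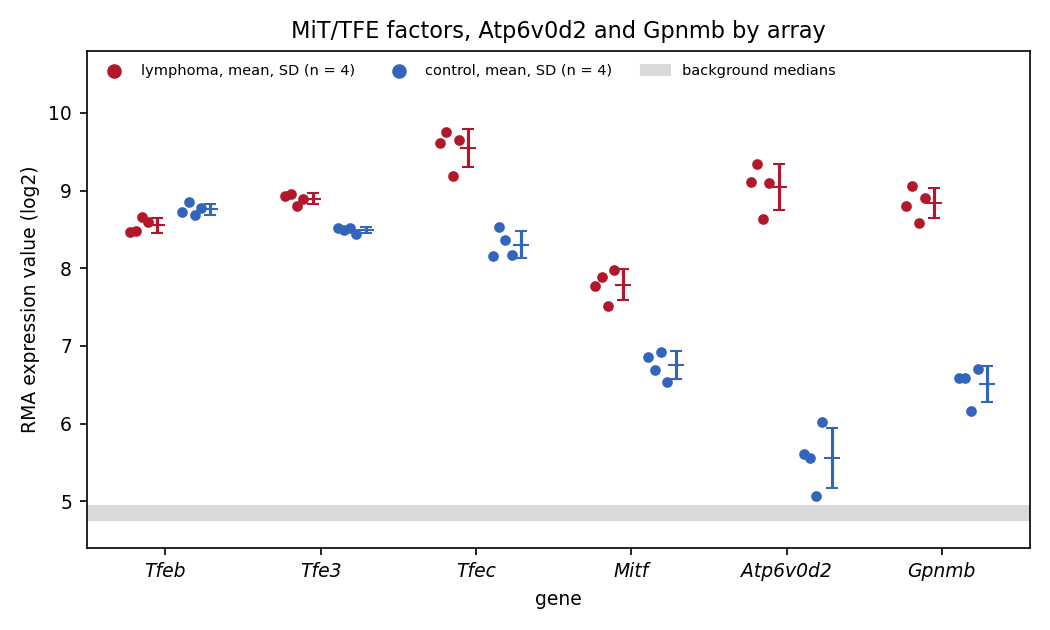
Values on each array (y axis, log2) of the 4 MiT/TFE factor genes and of *Atp6v0d2* and *Gpnmb*, with lymphoma arrays in red on the left and control arrays in blue on the right of each pair; dashes and bars are the mean and SD of 4 arrays, and the grey band spans the background medians. *Tfeb* is the gene in the plot with red points below the blue ones.

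The promoters of the lysosomal genes were searched for this E-box, without use of the expression values. Many genes of the compartment are known to share it, so its share below is not independent of the choice of genes. RefSeq promoters of build GRCm38.p6, from 250 bases before to 50 bases after each gene's start, were found for 27 of the 32 genes. The core letters CACGTG, which read the same on both strands, occurred in 10 of the 27 genes (37.0%) and in 2187 of 27025 genes in all (8.09%), and the longer form TCACGTGA, which holds the core, occurred in 5 of the 27 (18.5%) and in 304 of all genes (1.12%). *Ctsl*, *Lgmn*, *Ctsa*, *Gaa*, *Gla*, *Lamp1*, *Mcoln1* and *Atp6v1a* are the measured genes among the 10. *Ctsd*, which was not analysed here, holds 2 copies of the core, 1 of them in the longer form, and is not shown. The stretches below are those of the measured genes with the longer form or several copies of the core. They are written upstream of the start and 5′ to 3′ on the strand of the gene, with CACGTG or TCACGTGA in capitals. They lie at chr8:13159080-13159160 (+ strand) for *Lamp1*, chrX:134601173-134601253 (- strand) for *Gla*, chr8:3500428-3500500 (+ strand) for *Mcoln1*, chr2:164833740-164833772 (+ strand) for *Ctsa* and chr16:44139364-44139411 (- strand) for *Atp6v1a*.
Lamp1: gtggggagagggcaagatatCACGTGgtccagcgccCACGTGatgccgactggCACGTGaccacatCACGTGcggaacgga
Gla: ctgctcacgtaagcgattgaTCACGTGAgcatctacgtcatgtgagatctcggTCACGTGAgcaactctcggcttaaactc
Mcoln1: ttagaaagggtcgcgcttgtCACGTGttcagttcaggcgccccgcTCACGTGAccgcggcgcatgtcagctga
Ctsa: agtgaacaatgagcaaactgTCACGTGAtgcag
Atp6v1a: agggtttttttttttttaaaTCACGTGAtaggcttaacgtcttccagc

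Of the 3 genes that did not pass the test, *Mcoln1* has the motif in its promoter, and *Ctsk* and *Tfeb* do not. *Lamp1* holds 4 copies of the core between 61 and 15 bases before its start and changed by 0.92, *Gla* holds 2 copies of the longer form and changed by 1.54, and *Mcoln1* holds 2 copies and changed by 0.06. The 8 measured genes with the core had a median log2 fold change of 0.90 with 7 called higher, beside 0.72 and 14 of 16 for the measured genes whose promoter in the table lacks it, among them *Grn* and *Cd63*. A match is a description of these letters and not of binding, and the promoter of *Atp6v0d2* was not used here.

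The lysosomal genes varied together between the lymphoma arrays. Lymphoma replicate 3 had the lowest value of its group for 24 of the 29 genes and lymphoma replicate 2 the highest for 18, whereas over all clusters these arrays were lowest and highest for 26.5% and 25.2%. The median deviation of the 29 genes from their group means was -0.13 on replicate 3, 0.07 on replicate 2, 0.03 on replicate 1 and -0.00 on replicate 4. Among control arrays it lay between -0.03 and 0.05. Of the genes with the lowest value on lymphoma replicate 3, *Gla* and *Atp6v0d2* lay farthest below their group means, at -0.48 and -0.41. Without that array, the same count of 26 genes was higher.

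**Figure D5:**
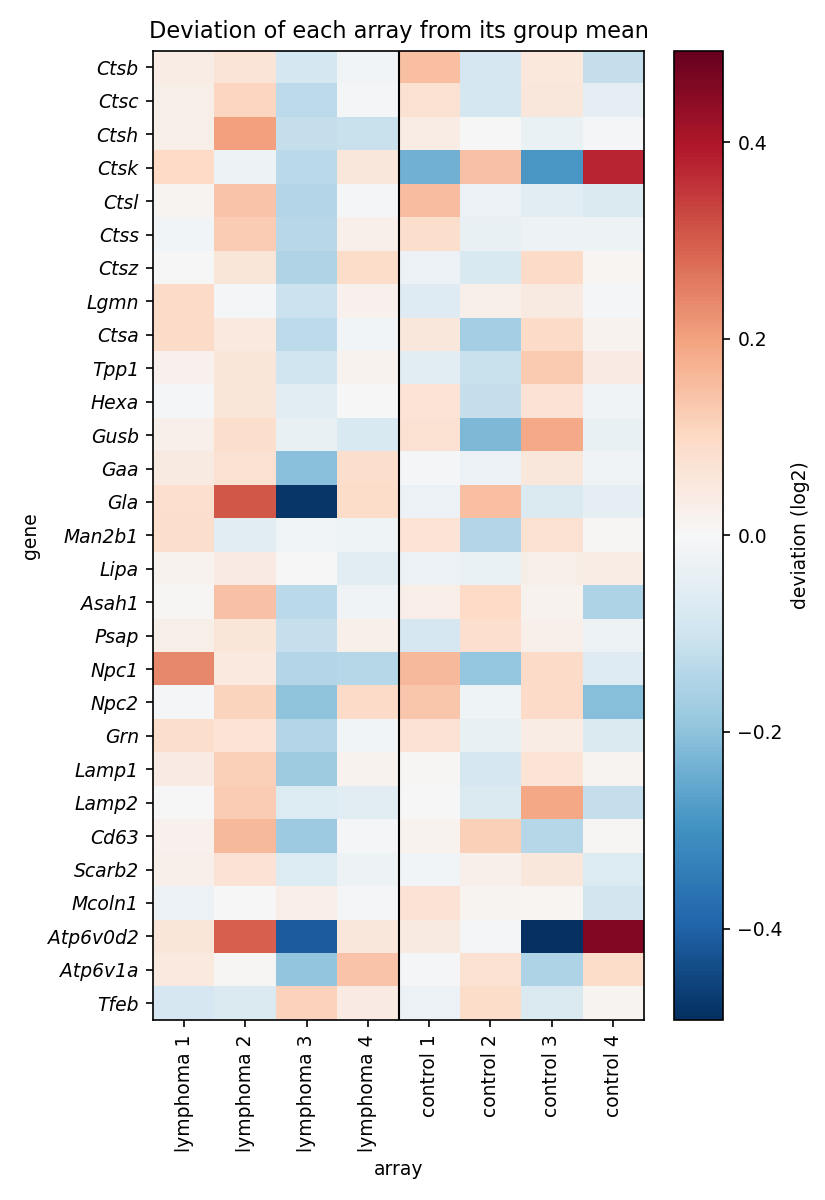
Deviation of each array (x axis) from the mean of its group for each lysosomal gene (y axis), in log2 units by colour, red above and blue below the mean; the black line parts the lymphoma arrays on the left from the control arrays on the right. The column of lymphoma replicate 3 is blue for most genes, with the strongest shades for *Gla* and *Atp6v0d2*.

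Markers of some cell types moved in the same direction as these genes, and those of others were lower or divided. The counts of each list are to be read beside 18.2% of all clusters called higher and 17.2% called lower. Among the brighter clusters, 30.0% were called higher. Of 11 measured macrophage markers, 8 were higher and 0 lower. The median change of the list was 0.72 on the log2 scale, and its mean level was 9.81 to 9.85 on lymphoma arrays and 8.66 to 8.84 on control arrays. The complement genes *C1qc*, *C1qa* and *C1qb* had the largest changes of that list, at 2.77, 2.59 and 2.45. The 3 markers that did not pass the test were *Adgre1*, which encodes a surface protein of mouse macrophages, the mannose receptor gene *Mrc1* and *Cd14*. They had -0.17, -0.24 and 0.27 (limma adjusted p = 0.319, 0.394 and 0.139). On lymphoma replicate 3, where the lysosomal genes were lowest, 6 of the 8 macrophage markers called higher also had the lowest value of the group. Among them were all 3 complement genes, and 26.5% of all clusters were lowest there. The 3 markers that did not pass the test were at their highest on that array, and the mean level of the whole list was 9.83. Most B cell markers were also highest and several, but not all, neutrophil markers lowest on it. The low values were thus not particular to lysosomal and macrophage genes. Of 10 markers of resident red pulp and marginal zone macrophages, 5 were higher and 5 lower, with a median of -0.01. Of 7 monocyte markers 5 were higher, with a median of 0.82. Of 14 neutrophil markers 13 were higher, with a median of 2.52. Mean levels of the neutrophil markers were 9.14 to 9.31 in lymphoma and 6.81 to 6.99 in control spleens. Of 11 T cell markers 9 were higher, and all 11 measured B cell markers were lower, with medians of 0.58 and -0.91. Of 10 dendritic cell markers 3 were higher and 4 lower, and of 7 plasma cell markers 4 were higher and 1 lower. Of 6 erythroid markers 3 were higher and 0 lower, with mean levels of 8.94 to 9.12 on lymphoma arrays and a wider 7.83 to 8.90 on control arrays, and this count fell to 1 under another prior for the variances. Of 6 fibroblast markers 2 and 0, of 5 megakaryocyte markers 1 and 0, and of 7 endothelial markers 1 and 2. Of 7 osteoclast markers, which bear on *Ctsk* and *Atp6v0d2*, 2 were higher and 0 lower, with a median of -0.03, and mean levels were 7.46 to 7.63 in lymphoma and 7.49 to 7.57 in control spleens. Of the 2 higher, *Acp5* (0.55) is also counted among the other lysosomal hydrolases. The other, *Ocstamp*, changed by 0.30, with means of 6.81 in lymphoma and 6.50 in control spleens. None of the markers in these 13 lists lay at or below the background on all arrays. The osteoclast marker *Dcstamp* did so on 4 lymphoma arrays and 1 control array. The fibroblast marker *Lum* did so on 4 lymphoma and 3 control arrays, and neither marker passed the test. The part of any of these cells in the change of the lysosomal genes was not tested.

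*Vav1* had 10.49 ± 0.08 in lymphoma and 10.18 ± 0.15 in control spleens (SD, n = 4 each). It was called higher, with a log2 fold change of 0.31 (SE 0.09, limma adjusted p = 0.0149) and no overlap of the groups. Since its edited codons need not alter the signal of its probes, this does not check the labels. Correlations over all clusters were 0.992 to 0.995 within groups and 0.967 to 0.979 between them. The 18 hybridisation control probe sets, which read transcripts added in the laboratory, were lower on the lymphoma arrays, with a median difference of -0.44 (range -0.54 to -0.11, lymphoma minus control), and their part in the results was not tested.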

How the data were processed

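Total RNA of 8 spleen samples (splenocytes in the design text of the series) was measured on 1-colour Affymetrix Clariom S HT arrays. RNA was extracted with Trizol per the labels, whereas the methods name a column kit. The authors deposited log2 values of the robust multichip average, computed in R 3.6.3 per the submitters' processing notes. Its quantile step makes the arrays alike in overall signal, so changes are relative to other genes. The table holds 22206 transcript clusters and 6923 control probe sets, which were left out of the tests. Clusters were named from the platform annotation (19572 with 1 symbol, 2634 with none); looking the symbols up in RefSeq of GRCm38.p6 changed 0 of them. For a gene with several clusters, the brightest by its mean over the 8 arrays was used.

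Lymphoma and control spleens were compared with limma 3.58.1 in R 4.3.3 (lmFit and eBayes, no covariate, two-sided, Benjamini-Hochberg adjustment over all clusters, called at 0.05 or lower). The script was tested on simulated data. The genes, lists and tests were chosen with earlier results of these data known. Genes given with each array's value were those with the highest and lowest change in each role, all genes of roles with 3 or fewer, and those that did not pass the test; in the other lysosomal lists, up to 3 of the largest called changes and the largest in the opposite direction were named. That rule also covered the marker lists, but of these only macrophage genes, *Acp5*, *Ocstamp* and the background-level *Dcstamp* and *Lum* are named. The others are given by counts, and some lists also by medians or mean levels. Other genes whose array values are given, and *Tfe3*, *Adgre1*, *Mrc1* and *Cd14*, were chosen after their values were seen. Lists were described by counts, with no set test. Alternatives covered the replicate block, normalisation, variance moderation, array weights, dim clusters, the threshold and each array left out. Protein sequences were not used here, and the gene of the knock-in allele that both groups share is not reported here. No hybridisation batch or date is given in the sources used here, so none was tested.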

Additional observations from a re-analysis of the deposited data

Results flagged for a closer look

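In 2 of the 58 sets of 4 arrays (29 genes in each group), 1 array stood apart by Dixon's criterion, which chance meets in about 1 set in 20. *Gaa* was at 9.89 on lymphoma replicate 3, with the other lymphoma arrays from 10.14 to 10.18. *Ctss* was at 11.82 on control replicate 1, with the other control arrays from 11.70 to 11.71. Both arrays stayed on their group's side of the other group.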

How the results depend on the processing

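Under all 18 alternatives run, the same 26 lysosomal genes remained called as higher (468 of 468 values), and the median log2 fold change of the 29 genes lay between 0.68 and 0.79 (from 0.71 to 0.79 with 1 array left out). *Tfeb* decided the count of lower genes. It was 1 in place of 0 with cyclic loess, equal array medians, the trended and robust prior, array weights, the unmoderated test and without the dimmest 25% or 50% of clusters; with 1 array left out it lay between 0 and 1, being 1 without lymphoma replicate 3. The adjusted p of *Tfeb* lay between 0.0225 and 0.146 and its log2 fold change between -0.25 and -0.18. *Ctsk*, never called, changed sign to 0.073 with cyclic loess and 0.0079 with array weights, and lay between -0.097 and 0.12 with 1 array left out, above 0 without lymphoma replicates 2 or 3 or control replicates 2 or 4. Over all clusters, 2166 in place of 3825 were lower at an adjusted p of at most 0.01, and equal array medians gave 3740 higher and 4605 lower. Counts of higher genes in the other lysosomal lists stayed within 1.5 times in 107 of 108 values, the exception being 2 in place of 4 cathepsin inhibitors at 0.01. Whether the replicate numbers pair the samples or mark a shared batch is not settled. Deviations of same-numbered arrays correlated weakly, at 0.04 to 0.17. Each lymphoma array nevertheless correlated best with the control array of its own number. Control arrays 1, 2 and 4 likewise correlated best with the lymphoma array of their number, whereas control array 3 did so with lymphoma array 1. With the replicate number as a block, 26 lysosomal genes were higher and 0 lower, and over all clusters 4039 were higher and 3983 lower. Counts of lower genes in those lists, at most 5 as reported, stayed within 1.5 times in 89 of 108 values; without 1 array, those of the proton pump (2 in place of 1, without lymphoma replicates 1 or 4), sorting (1 in place of 2, without lymphoma replicate 2) and inhibitors (1 in place of 2, without lymphoma replicates 1 or 2 or control replicates 2 or 4) moved. For the marker lists, counts stayed so in 222 of 234 values for higher and 223 of 234 for lower genes. Erythroid markers called higher numbered 1 with the trended and robust prior, 0 with the unmoderated test and 1 at 0.01, in place of 3. Without 1 array, the megakaryocyte marker was lost (without lymphoma replicates 1 or 3 or control replicate 2), 1 in place of 2 endothelial markers was lower (without lymphoma replicates 2 or 4 or control replicates 2 or 3), and 1 in place of 0 was lower among osteoclast (without lymphoma replicates 3 or 4) and erythroid markers (without control replicate 2). The longer motif extended by 1 defined base on each side was found in 0 of the 27 genes with a promoter and in 100 of all genes. With 4 arrays a group, the number of arrays limits the precision.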
